A study of Mus musculus with 3 samples.

Results

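Atoh7 binding was examined at 6 genes for neuronal zinc finger factors, namely Myt1, Myt1l and St18 of the Myt1 family, the related pair Insm1 and Insm2, and Rest. A peak of the Atoh7 list was taken when its midpoint lay inside the gene, or within 100 kb of it, and 10 of 3668 peaks met this rule. The libraries came from retina of C57Bl6/J mice at embryonic day 14 and were made by CUT&RUN, in which an antibody guides a nuclease that releases the DNA beside the bound protein. There were 2 libraries with an Atoh7 antibody and 1 with IgG as the control, all from the same strain, age and tissue. The analysed list is a single set of intervals with positions and widths on the mm10 build. It lists neither peak heights nor values for separate libraries, so depth and the spread between replicates are unknown. The labelled tissue could not be checked against markers, since binding positions carry no expression level. Each statement below is a description of this list, and no test was run.

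Myt1 family proteins bind DNA through clusters of zinc fingers, and the family is known for promoting neuronal differentiation. In Xenopus, Myt1 acts with proneural bHLH factors and makes cells less sensitive to lateral inhibition by Notch. Myt1l, used to convert mouse fibroblasts into neurons, represses genes of non-neuronal programmes. Insm1 is a zinc finger repressor of newly born neurons and endocrine cells, and Insm2 is its closest relative. Rest works in the other direction, holding neuronal genes silent in progenitors and non-neuronal cells until it is lowered during differentiation. Atoh7 is itself a bHLH factor, and bHLH dimers bind the E-box, CANNTG.

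Sequence around start sites was held for 3 of the 6 genes, in windows of 300 bases with 250 before the start site and 50 after it (RefSeq, GRCm38.p6). For each of these genes the window below is that of the start site closest to any of the gene's own peaks, all on the plus strand. A window at Polr2b, which encodes a large subunit of RNA polymerase II, is added because it was the 1 window of the table that a peak at these genes overlapped. In Insm2 and Myt1l the capitals mark CANNTG, in Myt1 they mark AAGTTT, the core bound by Myt1 family zinc fingers, and in Polr2b they mark the 212 bases that lie under the Atoh7 peak near Rest.
Myt1, chr2:181763082-181763381: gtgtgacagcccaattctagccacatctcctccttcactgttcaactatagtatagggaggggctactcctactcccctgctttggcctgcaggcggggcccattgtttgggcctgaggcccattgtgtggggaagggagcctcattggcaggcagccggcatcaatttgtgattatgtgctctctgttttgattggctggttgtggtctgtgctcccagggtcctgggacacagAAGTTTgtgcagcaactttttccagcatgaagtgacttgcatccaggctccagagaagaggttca
Myt1l, chr12:29534972-29535271: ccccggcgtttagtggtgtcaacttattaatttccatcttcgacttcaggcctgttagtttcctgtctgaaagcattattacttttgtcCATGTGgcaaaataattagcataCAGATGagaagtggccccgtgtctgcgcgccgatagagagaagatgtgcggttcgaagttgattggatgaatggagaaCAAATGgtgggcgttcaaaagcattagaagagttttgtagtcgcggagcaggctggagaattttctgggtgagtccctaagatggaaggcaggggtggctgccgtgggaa
Insm2, chr12:55598667-55598966: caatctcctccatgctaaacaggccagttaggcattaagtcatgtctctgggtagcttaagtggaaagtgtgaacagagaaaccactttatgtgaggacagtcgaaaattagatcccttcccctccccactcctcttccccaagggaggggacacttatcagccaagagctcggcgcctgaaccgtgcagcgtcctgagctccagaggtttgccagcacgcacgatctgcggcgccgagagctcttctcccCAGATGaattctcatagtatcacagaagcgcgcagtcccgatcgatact
Polr2b, chr5:77310234-77310533: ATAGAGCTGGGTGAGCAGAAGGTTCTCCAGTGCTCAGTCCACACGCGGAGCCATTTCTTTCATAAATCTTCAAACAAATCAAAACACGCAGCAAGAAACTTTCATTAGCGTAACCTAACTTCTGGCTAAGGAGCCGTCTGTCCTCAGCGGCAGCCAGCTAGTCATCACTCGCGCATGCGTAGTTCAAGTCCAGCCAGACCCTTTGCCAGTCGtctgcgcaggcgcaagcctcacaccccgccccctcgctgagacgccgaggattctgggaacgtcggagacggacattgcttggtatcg

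The printed Myt1 window held 0 matches to CANNTG and 1 to AAGTTT, read on both strands. The other peak in Myt1 was nearest to a different Myt1 start site. The window of that start site, not printed, held 2 matches to CANNTG and 0 to AAGTTT. In Insm2 the 1 match to CANNTG was CAGATG at base 252, next to the start site at base 251 of the window. The Myt1l window held 3 matches to CANNTG, of which 1 was CAGATG. The Polr2b window, of which 212 bases were under a peak, held 0 matches to CANNTG and 1 to AAGTTT, at base 96 and so under the peak. Over all 9 windows of Myt1 (3), Myt1l (5) and Insm2 (1), 7 held CANNTG and 4 held CAGATG on either strand. CAGCTG was held by 1 and AAGTTT, on either strand, by 2. The windows with CAGATG belonged to Myt1l and Insm2, and those with AAGTTT to Myt1 alone. Windows of the same gene are not independent of each other. Among 32851 windows of the whole promoter table, 72.3% held CANNTG, 17.2% held CAGATG, 16.3% held CAGCTG and 14.4% held AAGTTT. The letters CAGATG and CAGCTG are themselves forms of CANNTG, so those counts overlap. No peak at the 6 genes overlapped a listed window of any of them, so the letters in their windows describe start sites and not the DNA under peaks.

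All 6 genes had at least 1 peak inside or within 100 kb, where 34.9% of 21631 protein-coding genes did by the same rule. The genes had been chosen with earlier results of these data known, and neighbouring genes can share a peak. Insm2 had 4 peaks, Myt1 had 2, and Myt1l, St18, Insm1 and Rest had 1 each. Only Myt1 and St18 had a peak inside the gene, which held for 7.17% of protein-coding genes. The same 2 genes were the nearest protein-coding gene to a peak within 100 kb, against 11.1% of protein-coding genes. Within 50 kb, 4 of the 6 genes had a peak, against 24.4% of protein-coding genes. From the wider 50% of peaks, 4 of the 6 genes had a peak within 100 kb, against 20% of protein-coding genes. For the other 4 genes, Myt1l, Insm1, Insm2 and Rest, the peaks lay from 18.5 to 80.8 kb outside. By distance to the gene body, every one of these peaks was closer to some other protein-coding gene. In all, 3 of the 10 peaks were centred inside their own gene, 5 inside another protein-coding gene and 2 in no protein-coding gene. Without peaks inside another protein-coding gene, 3 of the 6 genes had a peak (Myt1, St18 and Insm2), against 22.4% of protein-coding genes. Over the whole list 46.3% of peaks were centred in no protein-coding gene.

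**Figure D1:**
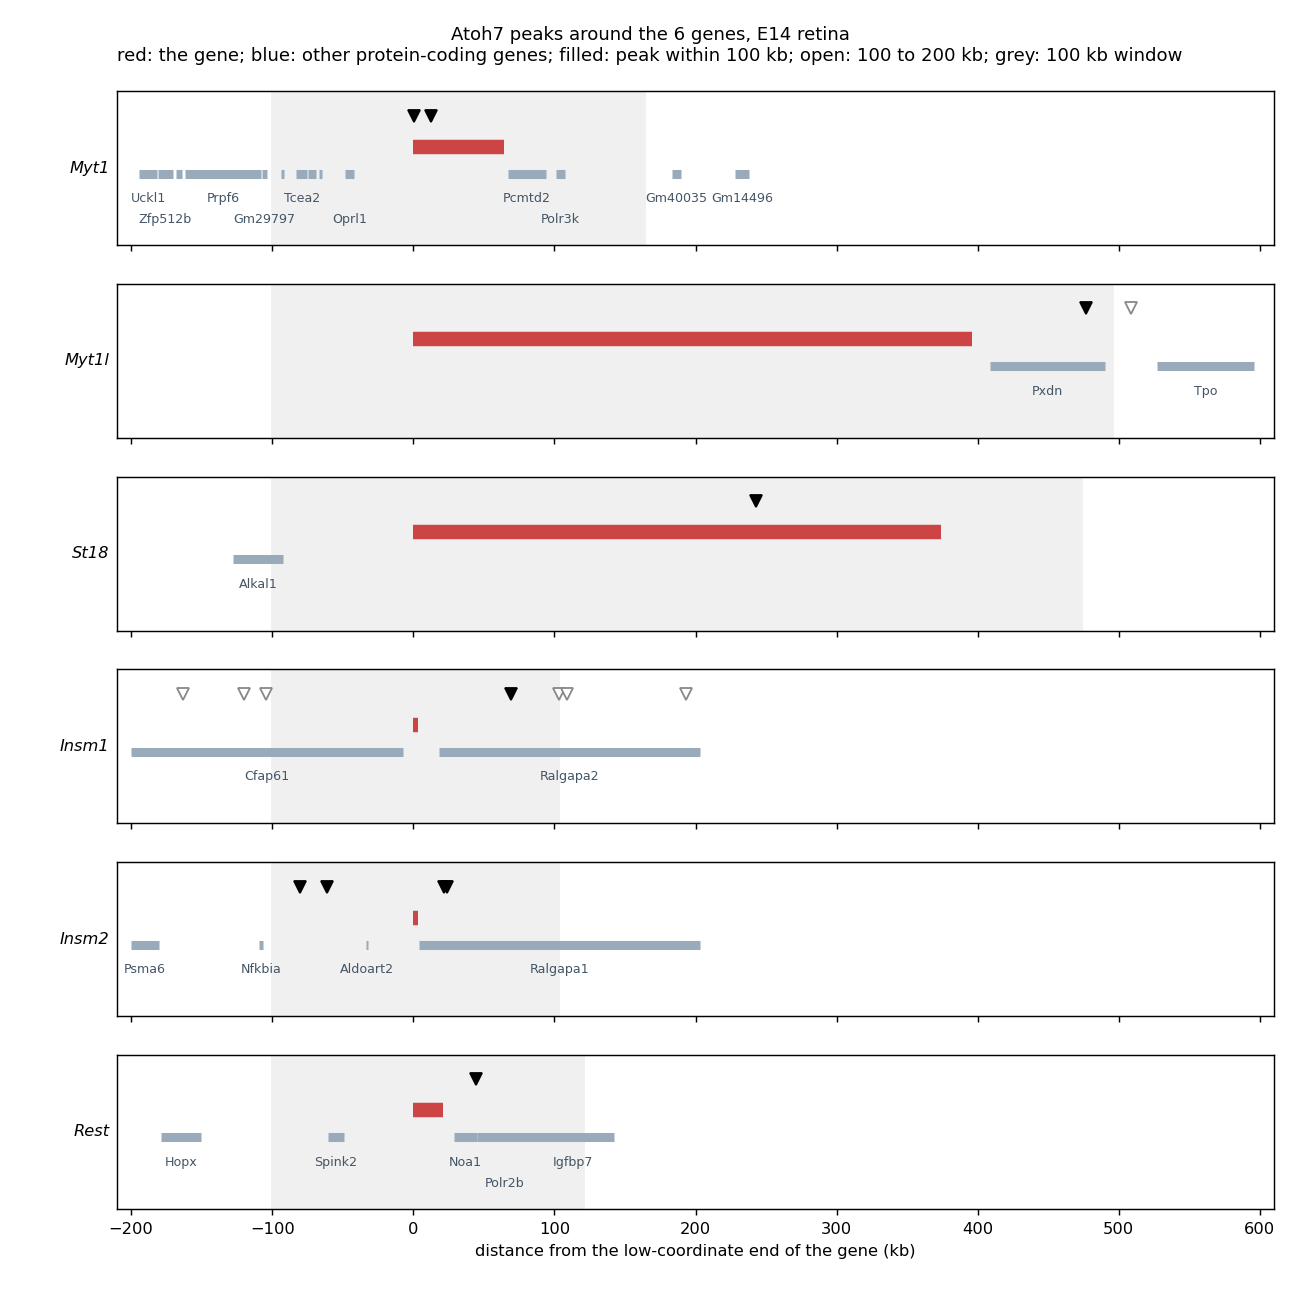
Atoh7 peak centres (triangles) around each of the 6 genes, with distance in kb from the low-coordinate end of the gene on the x axis. Red bars are the genes, blue bars other protein-coding genes (not every one is labelled), and grey the gene with 100 kb on each side; Myt1 and St18 hold filled triangles inside the red bar, and Insm1 has 6 open triangles between 100 and 200 kb.

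Myt1 had its peaks in the first part of the gene. The gene lies on chromosome 2 at 181763332 to 181827775 (64.4 kb, plus strand). The first peak ran from 181763811 to 181764230, was 420 bp wide and was centred 0.689 kb past the first start site, with its near edge 479 bp from that site. Of 17274 protein-coding genes in the promoter table, 4.56% had a peak centred within 1 kb of a listed start site. The other peak ran from 181775813 to 181776015, was 203 bp wide and was centred 12.6 kb into the gene, 8.89 kb past the next start site. It was the narrowest of the 10, and 92.1% of all peaks were at least as wide. A count of 2 or more peaks inside the gene was found for 1.29% of protein-coding genes. That share takes in genes of every length, and shorter genes have less room for 2 peaks. The share among genes as long as Myt1 was not computed. The nearest other protein-coding genes to these peaks were Oprl1, an opioid-like receptor gene, at 43.04 kb and Pcmtd2 at 54.2 kb, so Myt1 was the nearest gene to both.

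St18, also called Myt3, had its peak inside the gene body, far from both ends. The promoter table lists no start site of St18, so the distance from this peak to a start site was not measured. The gene spans 374 kb of chromosome 1 (6487231 to 6860940). The peak at 6729633 to 6729957 was 325 bp wide and was centred 243 kb from the low-coordinate end of the gene and 131 kb from the other. Its nearest other protein-coding gene was Alkal1, at 335 kb, and the next listed peak was 359 kb away. Long genes have more room for peaks, and 38.2% of 330 protein-coding genes of 300 to 500 kb had a peak inside.

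Myt1l is the longest of the family, at 396 kb on chromosome 12 (29527590 to 29923216, plus strand), and had no listed peak inside it. Its 1 peak, at 30003862 to 30004228 (367 bp), lay 80.8 kb past the end of the gene and inside Pxdn, the gene of peroxidasin, an extracellular matrix peroxidase. That peak was 469 kb from the nearest Myt1l start site. The running numbers in the peak names rose with position on all 20 chromosomes analysed, and 4 numbers were absent between this peak and the previous listed one. The stretch between them was 713 kb and contains the whole of Myt1l. The list does not show where in that stretch the absent numbers lay. By position along the gene body, the 3 genes of the family differed in placement. Myt1 had a peak near its first listed start, St18 had one inside the body and Myt1l had one only beyond the end, inside Pxdn. Placement relative to a start site could not be compared for St18, which has no listed start site.

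Insm2 had the most peaks of the 6 genes and the highest density. The gene is 3.10 kb long on chromosome 12 (55598917 to 55602018, plus strand). Upstream of its start were peaks at 55518135 to 55518622 (488 bp) and 55537740 to 55538168 (429 bp), centred 80.5 and 61.0 kb away. Both lay in no annotated gene, and their nearest protein-coding genes were Nfkbia, which encodes an inhibitor of NF-kappa-B, at 25.7 kb and Aldoart2, an aldolase gene, at 27.3 kb. Downstream were peaks at 55620327 to 55620715 (389 bp) and 55622684 to 55623034 (351 bp), centred 18.5 and 20.8 kb past the end of the gene. These were 2.34 kb apart, and 11.4% of all peaks had another within 5 kb. Both downstream peaks were inside Ralgapa1, which encodes a catalytic subunit of the Ral GTPase-activating complex. The annotated body of Ralgapa1 has its near end 0.870 kb beyond the end of Insm2. Of the start sites in the promoter table, that of Insm2 was nearest to both downstream peaks, at 21.6 and 23.9 kb. Counts of 4 or more within 100 kb were found for 1.88% of protein-coding genes. At 1.97 peaks per 100 kb of gene and margins, Insm2 had a density that 0.587% of protein-coding genes reached. The 4 peaks carry the running numbers 1392 to 1395, with none absent between them. The range begins and ends at listed peaks, so its end numbers were present by construction. Just before it, 1 number was absent. Neither Insm2 nor Insm1 had a peak within 10 kb. Of 4850 protein-coding genes of up to 5 kb, 5.44% had a peak within 10 kb and 24.8% within 100 kb.

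Insm1 had 1 peak within the 100 kb limit and 6 more between 100 and 200 kb away. The gene is 3.02 kb long on chromosome 2 (146221997 to 146225020). The peak at 146290845 to 146291372 was 528 bp wide, the widest of the 10, with 18.4% of all peaks at least as wide. It was centred 66.1 kb from Insm1 and lay inside Ralgapa2, the paralogue of the gene beside Insm2. Beyond the limit were 3 peaks inside Ralgapa2 at 100.3, 106 and 190 kb, and 3 inside Cfap61, a cilia gene on the other side of Insm1, at 105, 120.2 and 163 kb. Counted to 200 kb, Insm1 had 7 peaks, a count that 0.532% of protein-coding genes reached, and 49.1% of protein-coding genes had at least 1. Insm2 kept 4 peaks at that distance, where 6.69% of protein-coding genes had as many. Ralgapa2 held 4 peaks over 272 kb and Ralgapa1 held 2 over 219 kb. The gaps between Insm and Ralgapa genes were 14.9 kb for Insm1 and 0.870 kb for Insm2. Cfap61 and the distance of 200 kb were chosen after the values had been seen.

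Rest, on chromosome 5 at 77265494 to 77286432 (20.9 kb), had its 1 peak 23.8 kb outside the gene. The peak ran from 77309978 to 77310445 and was 468 bp wide. It was centred inside Noa1, which encodes a mitochondrial GTPase, and 0.273 kb from the start site of Polr2b, whose window is printed above. It was the 1 peak of the 10 that overlapped any promoter window, where 18.4% of all peaks did. The nearest other listed peak was 528 kb away. By distance the peak lay at the facing ends of Noa1 and Polr2b, and was centred in the end of Noa1 that is far from Rest. Just inside and just outside the 100 kb rule, the farthest peaks counted were those of Myt1l at 80.8 kb and Insm2 at 80.5 kb, and the closest left out were those of Insm1 at 100.3, 105 and 106 kb.

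**Figure D2:**
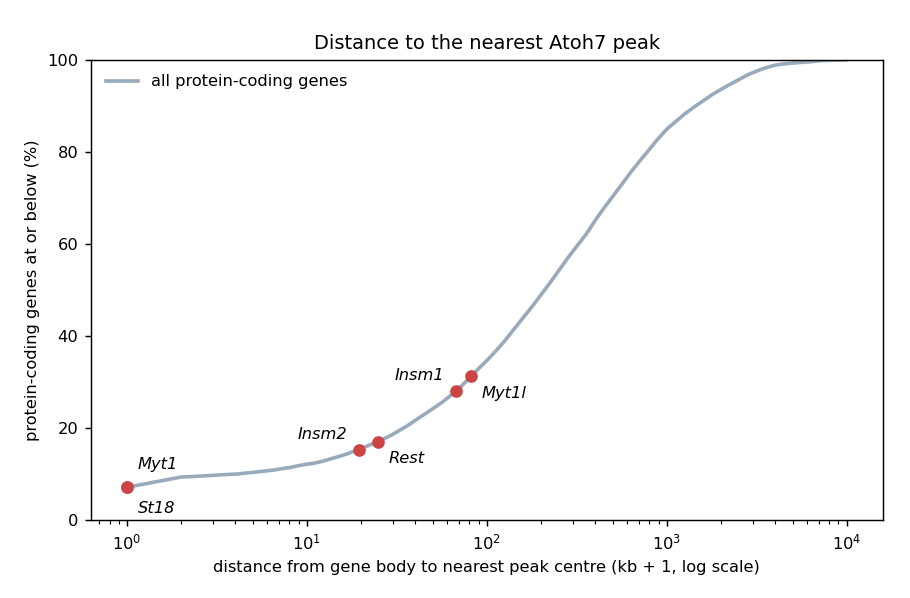
Distance in kb from the gene body to the nearest Atoh7 peak centre (x axis, kb + 1 on a log scale) against the percentage of protein-coding genes at or below that distance (y axis). Red points are the 6 genes and the line is all protein-coding genes; Myt1 and St18 sit at 0 kb and Myt1l is farthest, at 80.8 kb.

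The distance to the nearest peak was 0 kb for Myt1 and St18, 18.5 kb for Insm2, 23.8 kb for Rest, 66.1 kb for Insm1 and 80.8 kb for Myt1l. The median over the 6 genes was 21.1 kb, against 208 kb over all protein-coding genes (quartiles 52.4 and 614 kb). All 6 genes had a peak within 100 kb, so their distances could not exceed that limit. The contrast of medians thus follows from that count and is no separate result. A nearest peak as close as that of Insm2 was found for 15.4% of protein-coding genes, and one as close as that of Myt1l for 31.2%. Density in peaks per 100 kb of gene and margins was 1.97 for Insm2, 0.756 for Myt1, 0.493 for Insm1, 0.453 for Rest, 0.174 for St18 and 0.168 for Myt1l. Over all protein-coding genes the mean was 0.234 and the median 0. The long genes Myt1l and St18 were below that mean and the other 4 above it. The mean includes the many genes without a peak, so 1 peak in a window as short as that of Insm1 or Rest exceeds it. Of protein-coding genes, 34.4% were at least as dense as Myt1l or St18. Insm1, Rest, St18 and Myt1l had 1 peak each, so their densities differ only by the length of gene and margins. Those lengths were 203, 221, 574 and 596 kb.

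The widths of the 10 peaks ran from 203 to 528 bp with a median of 404.5 bp. Over the list the median was 381 bp, with quartiles of 269 and 486 bp, and 6 of the 10 peaks were wider than that median. The peaks of Insm1 and Rest were wider than the list median, and the peaks of St18 and Myt1l were narrower. The 4 peaks of Insm2 ran from 351 to 488 bp. Width says how long a called interval is and is no measure of occupancy.

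**Figure D3:**
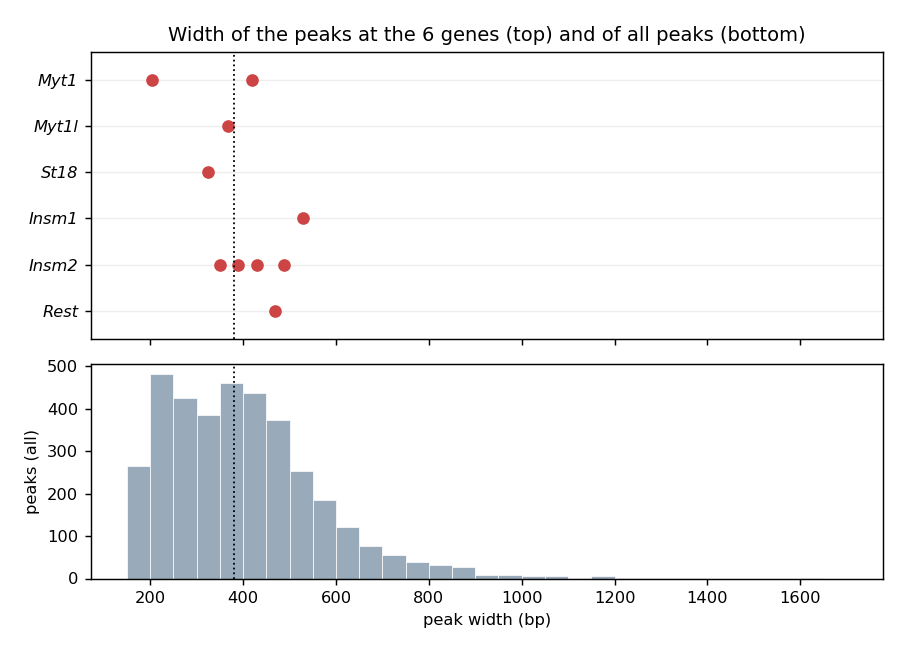
Width in bp of each of the 10 peaks by gene (top, 1 point per peak) and the number of all listed peaks per 50 bp of width (bottom), with the list median of 381 bp as a dotted line. The points run from 203 bp at Myt1 to 528 bp at Insm1 and sit within the bulk of the list.

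Genes tied to these factors were listed by role. The list for REST held 18 genes, which were partners of REST and Srrm4, a regulator of Rest transcripts. Of these, 9 had a peak inside or within 100 kb, where 34.9% of protein-coding genes did. Of the 18 genes, 5 were the nearest gene to a peak within 100 kb, against 11.1% of protein-coding genes. Ehmt1, a histone H3 lysine methyltransferase gene, Rcor2, a CoREST co-repressor gene, and Srrm4, a neuronal splicing factor known to switch Rest transcripts to a truncated form, had 3 peaks each. Ehmt2, the partner of Ehmt1, had 2. Of the 3 peaks of Ehmt1, 0 lay inside the gene and 1 within 10 kb, while all 3 of Srrm4 lay inside it. All 3 peaks of Rcor2 lay within 10 kb of the gene and 2 of them inside it, although the gene is only 7.83 kb long. Rcor2 also belongs to the list of 6 INSM1 partners, where it and Hdac3, with 1 peak at 56.8 kb, were the 2 genes with a peak (33.3%, about the 34.9% of protein-coding genes). The next in that list, the cyclin gene Ccnd1 and the repressor gene Gfi1, had none.

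Neuronal genes of the kind that REST represses had peaks in 5 of 20 cases, and 3 of the 20 were the nearest gene to a peak. Over all protein-coding genes the shares were 34.9% and 11.1%, so neither count stood much apart from the background. Chgb, a secretory granule protein gene, and Unc13a, a synaptic vesicle priming gene, had 2 each, and Grin1 and Kcnh7 had 1 each at 53.1 and 62.1 kb. Of the 7 partners and Notch pathway targets of the Myt1 family, 3 had a peak (42.9%), near the 34.9% of protein-coding genes. The same 3 were the nearest gene to a peak, against 11.1% of protein-coding genes. Notch1, the receptor gene, had 3 inside it, and the effector genes Hes1 and Hes5 had 1 each at 45.0 and 2.09 kb. Hdac1, a deacetylase gene, had none. The lists share Kdm1a, Hdac1, Hdac2, Sin3b, Rcor2 and Gfi1 in part and are not independent.

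Other neuronal zinc finger factors had a peak in 11 of 18 cases (61.1%), against 34.9% of protein-coding genes, and 7 were the nearest gene to a peak, against 11.1%. Casz1 had 6 peaks, with 4 of them inside the gene, Zeb2 had 3, Zbtb18 had 2 and Scrt2 had 2, the closest of Scrt2 at 56.4 kb. Set beside like groups of transcription factor genes, the 6 genes here had a peak within 100 kb in 6 of 6 cases, proneural bHLH genes in 8 of 11, Ebf genes in 2 of 4 and Sox genes in 0 of 6. As the nearest gene to a peak the counts were 2 of 6 here, 6 of 11 for proneural bHLH genes, 2 of 4 for Ebf genes and 0 of 6 for Sox genes. Within 10 kb, which 12.4% of protein-coding genes met, they were 2 of 6 here, 5 of 11 for proneural bHLH genes, 2 of 4 for Ebf genes and 0 of 6 for Sox genes. These lists were put together with results of the data known, their sizes are small, and the differences between them were not tested.

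**Figure D4:**
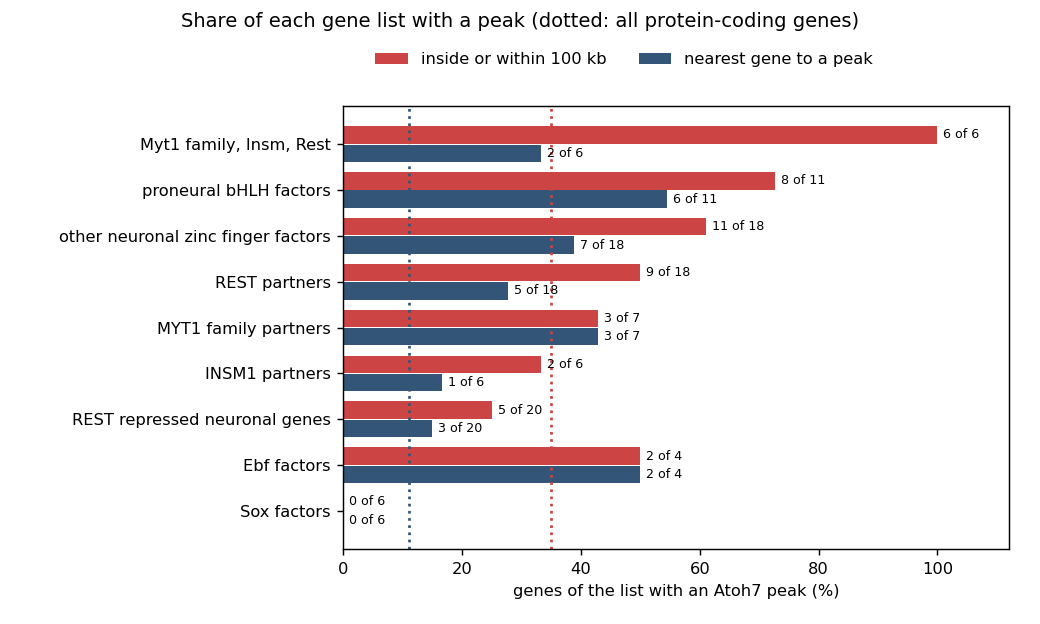
Percentage of the genes in each list (y axis) with an Atoh7 peak inside or within 100 kb (red bars) or as the nearest gene to a peak within 100 kb (blue bars), with the count beside each bar. Dotted lines are all protein-coding genes at 34.9% and 11.1%. The 6 genes have 6 of 6 for the red bar and 2 of 6 for the blue. The list named REST partners includes Srrm4.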

How the data were processed

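CUT&RUN libraries were made from embryonic day 14 mouse retina, 2 with an Atoh7 antibody and 1 with IgG, grouped by their titles. Per the submitters' processing notes, the authors used MACS2 2.2.7.1, Bowtie2 2.3.5, bedtools, Picard 2.0.1 and SAMtools, on mm10, without stated settings. The deposited list gives 3668 peaks with start, end and width in bp, per the file headers. Every name carries replicate 1, and of 7185 running numbers 3517 are absent. The sources do not state whether replicate 2 or IgG entered the list. Peaks with no enrichment value cannot be weighted by depth, which is unknown.

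Peaks on chromosomes 1 to 19 and X (3662 of 3668) were compared with genes of RefSeq GRCm38.p6, the assembly mm10 names. Distances run from the peak midpoint to the gene body, and start sites and sequences come from the RefSeq promoter table, which held 3 of the 6 genes. No genome sequence was used here, so motifs were searched in promoter windows and, of the peaks, only in the part of the Rest peak that the Polr2b window covers. The members, lists and choices were made with earlier results of these data known. Named genes were the 6 members, the genes nearest to their peaks and up to 4 genes per list with the most peaks. Others were named after their values were seen. No p-value was computed. The counting was tested on simulated peaks. Python 3.11.15, numpy 2.4.6, pandas 2.3.3 and matplotlib 3.10.9 were used.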

Additional observations from a re-analysis of the deposited data

How the results depend on the processing

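The count of 6 genes with a peak was 6 when any overlap of 1 bp counted and 6 at 200 kb, and 4 at 50 kb or with the wider 50% of peaks. It was 2 at 10 kb, 2 inside the gene body and 2 when a peak counted for its nearest protein-coding gene alone, and 3 without peaks inside another protein-coding gene. The 10 peaks became 6 at 50 kb, 3 at 10 kb, 3 inside the gene body, 3 by nearest gene, 6 with the wider 50% of peaks, 5 without peaks inside another gene and 17 at 200 kb. These settings narrow or widen what is counted by construction. For single genes, 24 of 48 alternative counts stayed within 1.5 times the reported count. The setting of 200 kb and the removal of peaks inside other genes were chosen after seeing the data. No paired analysis was possible because the list holds no value per library, and for the same reason no replicate could be left out.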
